A study of Mus musculus with 28 samples.

Results

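The 10 genes described here are immediate early genes that neurons switch on when they are active: the transcription factors Npas4, Nr4a1, Nr4a2, Nr4a3, Egr1, Egr2, Egr3, Egr4 and Fos, and Arc, which encodes a synaptic protein. They were taken by symbol from 30611 named genes of an array study of mouse cortex, and each was read from the row annotated with its symbol that was brightest over 28 arrays. Of the 10, 9 had a single row and Egr3 had 3. No filter on low values was used, so all 10 were tested.

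The 28 mice, 12 to 15 weeks old, fell into 4 groups of 7: Rbm5 knockout (KO) after controlled cortical impact (CCI), KO after sham, wild type (WT) after CCI and WT after sham. CCI was a craniotomy over the left parietal cortex followed by a mechanical impact at 6 m/s to a depth of 1.2 mm. Sham mice had anaesthesia and no craniotomy, so the injury comparisons hold the opening of the skull as well as the impact. Each group held males and females (3 and 4, except KO sham with 4 and 3), and cortical tissue was collected at 48 h after perfusion with cold saline. The labels name no allele, promoter or strain for the knockout. Values are log2 signals of the MTA 1.0 array, and a gene was called changed where the limma p-value, adjusted over 65956 rows by the Benjamini-Hochberg method, was under 0.05.

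Synaptic input raises calcium in a neuron, and calcium-dependent kinases then act on transcription factors such as CREB, SRF and MEF2 that sit at the promoters of these genes. The transcripts appear within minutes without new protein synthesis and decay quickly, so their level at one moment follows recent activity. Fos and Egr1 also respond to growth factors and stress in many cell types, whereas Npas4 is selective for calcium entry in neurons. Bulk tissue was measured: fewer cells of a type and less RNA per cell cannot be told apart in these values.

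Rbm5, which encodes a splicing regulator, was 1.95-fold lower in KO than in WT over both procedures (log2 change -0.97, SE 0.027, limma adjusted p = 2.4e-19), and signal remained in KO arrays at a mean of 9.75 after CCI and 9.76 after sham. Array medians lay between 5.79 and 5.90. On 7 arrays the mean of 6 striatum markers was above 9 or that of 8 choroid plexus markers above 7 (KO CCI replicates 22 and 40, WT CCI replicates 13, 14, 16 and 35, WT sham replicate 25). Calls of the 10 genes that rest on these arrays are given with and without them. The title numbers form a run of 1 to 24 and a run of 25 to 42, each with all 4 groups, which the labels do not call batches.

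RefSeq promoter windows, the 250 bases before an annotated start, were at hand for 7 of the 10 genes: Npas4, Nr4a1, Nr4a2, Nr4a3, Egr2, Egr4 and Fos. The 5 printed here belong to genes whose signals moved together from mouse to mouse, as described further on. Capitals mark the core of the cAMP response element (CRE), TGACG or its complement CGTCA, and in Egr2 also the CArG box that SRF binds.
Npas4, GRCm38.p6 chr19:4989972-4990221, minus strand: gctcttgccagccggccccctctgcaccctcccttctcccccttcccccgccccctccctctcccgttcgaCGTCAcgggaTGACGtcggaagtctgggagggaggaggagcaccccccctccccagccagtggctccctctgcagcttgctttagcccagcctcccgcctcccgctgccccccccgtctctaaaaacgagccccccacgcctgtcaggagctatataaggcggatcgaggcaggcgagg
Nr4a1, GRCm38.p6 chr15:101266596-101266845, plus strand: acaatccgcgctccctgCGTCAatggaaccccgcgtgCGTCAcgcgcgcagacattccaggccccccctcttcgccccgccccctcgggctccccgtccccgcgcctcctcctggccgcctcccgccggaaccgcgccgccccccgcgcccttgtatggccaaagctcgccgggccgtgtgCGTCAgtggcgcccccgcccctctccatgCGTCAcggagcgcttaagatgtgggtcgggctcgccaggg
Nr4a3, GRCm38.p6 chr4:48045055-48045304, plus strand: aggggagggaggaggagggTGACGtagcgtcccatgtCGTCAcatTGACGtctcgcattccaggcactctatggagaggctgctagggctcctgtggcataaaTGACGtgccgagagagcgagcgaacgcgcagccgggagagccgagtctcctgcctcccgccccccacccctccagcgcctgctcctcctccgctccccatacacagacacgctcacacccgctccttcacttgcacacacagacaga
Egr2, GRCm38.p6 chr10:67537619-67537868, plus strand: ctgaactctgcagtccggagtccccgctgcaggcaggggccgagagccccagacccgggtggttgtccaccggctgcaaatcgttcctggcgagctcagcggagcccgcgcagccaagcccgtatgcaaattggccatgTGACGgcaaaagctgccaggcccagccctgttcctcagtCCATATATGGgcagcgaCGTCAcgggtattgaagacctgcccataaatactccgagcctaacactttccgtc
Fos, GRCm38.p6 chr12:85473640-85473889, plus strand: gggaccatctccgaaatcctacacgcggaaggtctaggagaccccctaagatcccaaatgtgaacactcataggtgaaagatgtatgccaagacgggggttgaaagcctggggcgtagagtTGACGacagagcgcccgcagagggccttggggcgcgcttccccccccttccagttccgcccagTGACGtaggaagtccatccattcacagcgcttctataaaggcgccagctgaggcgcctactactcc
The CRE core stood in the windows of Npas4, Nr4a1, Nr4a2, Nr4a3, Egr4 and Fos and in 3 of the 5 annotated windows of Egr2, and those 3 overlap one another. Nr4a1, Nr4a2 and Nr4a3 held 4 copies each, and Npas4, Egr4, Fos and the Egr2 window shown held 2. Among 32851 windows of the same length, 17.8% held at least 1 such core, 3.90% at least 2 and 0.688% at least 3. These windows were not matched for base composition, and the windows of the 7 genes held 54 to 80% G and C. In Npas4 the 2 copies lay 179 to 175 and 169 to 165 bases before the start, on opposite strands. The CArG box in the Egr2 window lay 72 to 63 bases before the start, and 1.47% of all windows held one. Searches on both strands for the full element TGACGTCA, which contains the core, the NR4A site AAAGGTCA and the AP-1 site TGANTCA gave no match in any window of the 7 genes (1.55%, 1.34% and 6.75% of all windows held them). The EGR site, GCGGGGGCG or GCGTGGGCG, matched once, in Nr4a1, and in 3.06% of all windows. Such matches describe letters in a window and not bound sites.

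At 48 h after CCI, 5 of the 10 genes were called lower than after sham in KO and the same 5 in WT: Npas4, Nr4a1, Nr4a3, Egr1 and Egr3. None was called higher. Of all rows, 8.27% were called lower and 8.43% higher in KO (16.7% in either direction), and 7.96% were called lower and 8.86% higher in WT (16.8%). The median log2 change of the 10 genes was -0.56 in KO and -0.59 in WT, beside 0.012 and -0.023 over all rows. With both genotypes in 1 comparison the same 5 were called lower, where 12.9% of all rows were called lower and 12.5% higher (25.4%).

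Npas4 encodes a neuron-specific factor that controls the number of inhibitory synapses a neuron receives. Its log2 signal had a lowest, median and highest value of 6.53, 6.80 and 7.72 in KO CCI, against 7.41, 8.32 and 10.01 in KO sham. In WT CCI the values were 6.77, 7.06 and 7.55, against 8.04, 8.61 and 9.39 in WT sham. Every injured WT mouse lay below every sham WT mouse, and 6 of 7 injured KO mice lay below the KO sham range. The share of all rows whose groups do not overlap is not given here, so such separations only describe each gene. The injured KO mice came close to the array's background rows, whose means reached 6.59, and a signal near background can understate a fold. On the deposited signal Npas4 was 2.64-fold lower after CCI in KO (log2 change -1.40, SE 0.28, limma adjusted p = 0.000648) and 2.66-fold lower in WT (-1.41, SE 0.28, adjusted p = 0.000493).

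The NR4A family are orphan nuclear receptors that bind DNA without a known activating ligand and regulate synaptic and metabolic genes. Nr4a1 (Nur77) spanned 8.57 to 9.95 with a median of 9.07 in KO CCI, against 9.55 to 12.19 with a median of 10.20 in KO sham. WT CCI mice spanned 8.75 to 9.91 with a median of 9.48, against 9.95 to 11.55 with a median of 10.84 in WT sham. The WT groups did not overlap, while 4 of 7 injured KO mice lay below the KO sham range. The log2 change was -1.17 in KO (SE 0.34, limma adjusted p = 0.0151) and -1.46 in WT (SE 0.34, adjusted p = 0.00221). The Nr4a1 call in KO rested on KO sham replicate 12, the highest mouse at 12.19: without it the change was -0.85 (adjusted p = 0.0534). The call in WT was lost without the 7 arrays of high striatum or choroid plexus signal (Nr4a1 -1.23, adjusted p = 0.0916), a fit with fewer arrays, while the KO call was kept (-1.30, adjusted p = 0.0334).

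Nr4a3 (Nor1) gave the cleaner separation in this family. It spanned 6.85 to 7.61 with a median of 7.23 in KO CCI, against 7.71 to 8.40 with a median of 7.84 in KO sham. WT CCI mice spanned 6.84 to 7.35 with a median of 7.22, against 7.75 to 8.40 with a median of 7.95 in WT sham. All 14 injured mice lay below all 14 sham mice. Nr4a3 was 1.66-fold lower in KO (log2 change -0.73, SE 0.12, limma adjusted p = 4.75e-05) and 1.78-fold lower in WT (-0.83, SE 0.12, adjusted p = 4.78e-06).

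Nr4a2 (Nurr1), best known for its part in dopamine neurons and expressed in deep cortical layers, did not pass the threshold. It spanned 10.24 to 11.80 with a median of 11.44 in KO CCI, against 11.31 to 12.06 with a median of 11.72 in KO sham. WT CCI mice spanned 10.67 to 11.72 with a median of 11.37, against 11.16 to 12.07 with a median of 11.50 in WT sham. The groups overlapped in both genotypes. The log2 change was -0.41 in KO (95% confidence interval -0.83 to 0.02) and -0.32 in WT (-0.75 to 0.10), with limma adjusted p-values of 0.211 and 0.350, and over both genotypes -0.36 (adjusted p = 0.0711). Without KO CCI replicate 40 the change in KO was -0.22.

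The EGR family are zinc finger factors that couple activity to lasting changes of gene expression. Egr3, which Egr1 can itself induce, spanned 8.41 to 9.45 with a median of 8.99 in KO CCI, against 9.89 to 10.84 with a median of 10.14 in KO sham. In WT CCI it spanned 8.79 to 9.64 with a median of 9.03, against 9.67 to 10.15 with a median of 10.10 in WT sham. As with Nr4a3, all 14 injured mice lay below all 14 sham mice. Egr3 was 2.31-fold lower in KO (log2 change -1.21, SE 0.16, limma adjusted p = 2.29e-06) and 1.78-fold lower in WT (-0.83, SE 0.16, adjusted p = 0.000254). The row read here carries no chromosome in its identifier. The other 2 Egr3 rows were also called lower, by log2 changes of -0.93 and -0.89 in KO and of -0.76 and -0.81 in WT.

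Egr1 (Zif268) is among the members used as markers of recent activity. It spanned 8.55 to 9.50 with a median of 9.26 in KO CCI, against 9.50 to 10.39 with a median of 9.59 in KO sham. In WT CCI it spanned 8.76 to 9.54 with a median of 9.20, against 9.43 to 10.18 with a median of 9.79 in WT sham. The KO groups did not overlap, and 6 of 7 injured WT mice lay below the WT sham range. Egr1 was 1.60-fold lower in KO (log2 change -0.68, SE 0.15, limma adjusted p = 0.0023) and 1.54-fold lower in WT (-0.62, SE 0.15, adjusted p = 0.0042).

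Egr2 (Krox20), also needed for myelin formation by Schwann cells, and Egr4 were not called. Egr2 spanned 6.84 to 7.15 in KO CCI, against 6.66 to 7.64 in KO sham, and 6.60 to 6.98 in WT CCI, against 6.62 to 7.21 in WT sham. Its log2 change was 0.03 in KO (95% confidence interval -0.20 to 0.26) and -0.07 in WT (-0.30 to 0.15). Egr4 spanned 5.92 to 6.21 in KO CCI, against 6.13 to 6.36 in KO sham, and 5.80 to 6.35 in WT CCI, against 5.97 to 6.29 in WT sham. Its log2 change was -0.13 in KO (-0.28 to 0.01) and -0.09 in WT (-0.24 to 0.05). Both genes overlapped between the groups in each genotype.

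Arc acts at synapses, where it promotes the removal of AMPA receptors. It spanned 8.63 to 10.51 with a median of 10.04 in KO CCI, against 9.47 to 11.73 with a median of 9.78 in KO sham. In WT CCI it spanned 9.29 to 10.46 with a median of 10.11, against 9.56 to 11.21 with a median of 10.52 in WT sham. In KO the median was higher after CCI while the mean was lower (9.68 against 10.14). KO sham replicate 12 stood highest at 11.73 and KO CCI replicate 41 lowest at 8.63. The log2 change was -0.44 in KO (95% confidence interval -1.13 to 0.24, limma adjusted p = 0.445) and -0.55 in WT (-1.23 to 0.13, adjusted p = 0.313). Without KO sham replicate 12 the change in KO was -0.12, and without KO CCI replicate 41 it was -0.28.

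Fos pairs with JUN proteins in the AP-1 factor. It spanned 6.42 to 6.90 with a median of 6.68 in KO CCI, against 6.11 to 7.72 with a median of 6.63 in KO sham. In WT CCI it spanned 6.49 to 7.03 with a median of 6.72, against 6.24 to 7.48 with a median of 6.72 in WT sham. The injured mice lay wholly inside the range of the sham mice in both genotypes. The log2 change was -0.04 in KO (95% confidence interval -0.49 to 0.42) and -0.09 in WT (-0.54 to 0.36). With 1 array left out at a time it ran between -0.15 and 0.15 in KO, so its sign rested on single mice. Means over all arrays were 6.14 for Egr4, 6.77 for Fos and 6.92 for Egr2, while the means of 23 antigenomic background rows reached 6.59. The array medians of 5222 negative control rows lay between 6.54 and 6.75, and their 95th percentiles between 10.2 and 10.4. Whether these 3 genes, or Npas4 and Nr4a3 after CCI, were above background is not settled by the deposited values. The CCI means of Nr4a1, Egr1, Egr3 and Arc lay between 8.95 and 9.93. They were above the background rows and the negative control medians, but also under the negative control 95th percentiles.

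**Figure D1:**
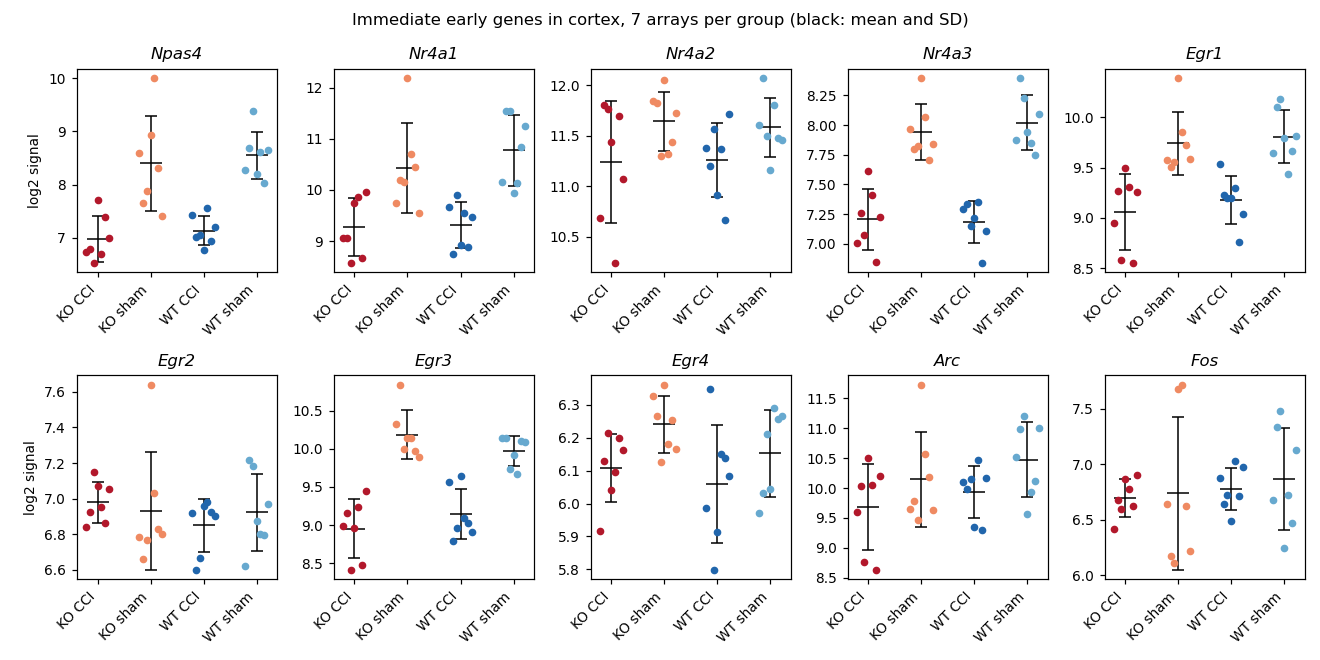
Log2 signal of each of the 10 genes (vertical axes, a scale of its own per gene) in every mouse, by group, with the mean and SD in black (n = 7 per group). The injured mice lie below the sham mice without overlap for Nr4a3 and Egr3, and KO sham replicate 12 is the topmost point for Nr4a1 at 12.19 and Arc at 11.73. The share of all rows without overlap is not given.

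**Figure D2:**
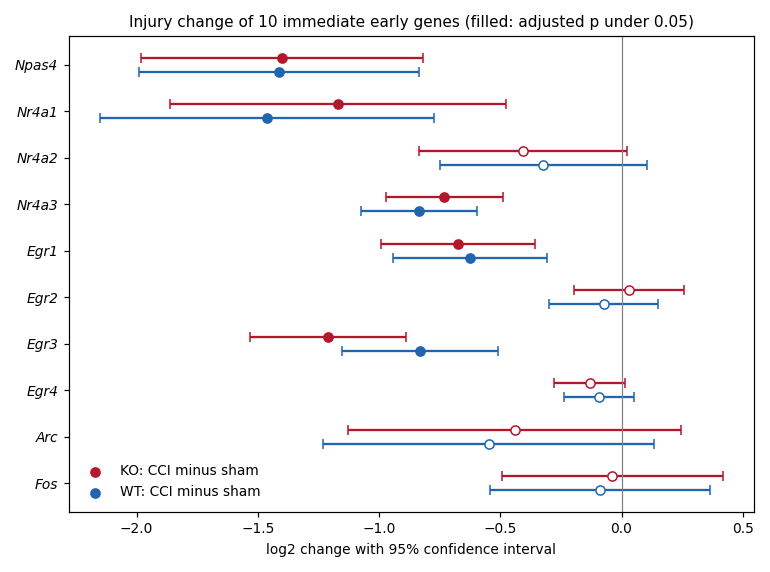
Log2 change after CCI relative to sham (horizontal axis) with its 95% confidence interval, KO above WT for each gene, filled where the adjusted p was under 0.05. The same 5 genes are filled in both genotypes, and the intervals of KO and WT overlap for each of the 10 genes.

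Within each run of title numbers alone, fits with fewer arrays, the 5 changes remained negative in both genotypes. In numbers 1 to 24, Npas4, Nr4a3 and Egr3 were called in KO (log2 changes -1.32, -0.76 and -1.45) and in WT (-1.57, -0.86 and -0.74). In numbers 25 to 42, Egr3 was called in KO (-0.94), and Nr4a3 and Egr3 in WT (-0.80 and -0.95). Over both genotypes each run alone called all 5 genes, with Npas4 at -1.45 and -1.29, Nr4a1 at -1.47 and -1.04, Nr4a3 at -0.81 and -0.72, Egr1 at -0.66 and -0.61 and Egr3 at -1.09 and -0.94 in the earlier and the later run.

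The genotype comparisons set KO against WT within each procedure. No member was called different between KO and WT after sham (1.28% of all rows were called), after CCI (0.653%) or over both procedures (3.16%), and none had an unadjusted limma p under 0.05 in these 3 comparisons. The lowest adjusted p was 0.729 after sham, 0.759 after CCI and 0.648 over both. After sham the log2 differences ran between -0.35 for Arc (95% confidence interval -1.04 to 0.33) and 0.19 for Egr3 (-0.13 to 0.51). After CCI they ran between -0.25 for Arc (-0.93 to 0.44) and 0.13 for Egr2 (-0.09 to 0.36). The tightest bounds over both procedures were those of Egr4 (0.07, interval -0.04 to 0.17), Egr2 (0.08, -0.08 to 0.24) and Nr4a3 (-0.03, -0.20 to 0.14). The intervals of Arc and Nr4a1 were wide (after sham -0.33 for Nr4a1, interval -1.02 to 0.37).

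The injury changes of KO and WT were also compared directly: 0 of 10 members passed, none had an unadjusted limma p under 0.05, and 0% of all rows were called. Egr3 had the largest difference, -0.38 for KO minus WT (95% confidence interval -0.83 to 0.08, adjusted p = 0.826). On the other Egr3 rows the difference was -0.17 and -0.08. Nr4a1 differed the other way, by 0.29 (-0.69 to 1.27).

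In group order, WT sham stood highest and KO sham next for Npas4, Nr4a1, Nr4a3, Egr1 and Arc. KO sham stood highest and WT sham next for Nr4a2, Egr3 and Egr4. Neither the 2 sham groups nor the 2 CCI groups differed beyond their spread by the test for any gene. KO sham and WT CCI, neighbours in the order of several genes, were not compared by a test, and their ranges overlapped for Npas4, Nr4a1 and Egr1. Both sham means were above both CCI means for the 8 genes ordered above, of which the 5 called after injury are a part. From highest to lowest, Egr2 ran KO CCI, KO sham, WT sham and WT CCI, and Fos ran WT sham, WT CCI, KO sham and KO CCI.

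Between females and males no member was called (0 of 10, none at an unadjusted limma p under 0.05, with 0.487% of all rows called), and the female minus male log2 differences lay between -0.16 for Egr3 and 0.13 for Nr4a1. No member was called for a difference of the injury change between the sexes (0 of 10, none at an unadjusted p under 0.05, with 0.0106% of all rows called). Its intervals were wide: -0.52 for Arc (95% confidence interval -1.53 to 0.50), -0.41 for Egr1 (-0.86 to 0.04) and 0.41 for Nr4a2 (-0.16 to 0.98).

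Mice of the same group differed more in these genes than in most others. With group and sex taken out, the residual SD was 0.68 for Nr4a1, 0.67 for Arc, 0.57 for Npas4, 0.44 for Fos and 0.42 for Nr4a2, beside a median of 0.16 over all rows. Those 5 were above the 99th percentile of all rows, Egr3 and Egr1 were at the percentiles 97.2 and 97.0, Nr4a3 at 87.1, Egr2 at 81.7 and Egr4 at 33.8. The spread depended on the procedure for some members. Pooled within groups, the SD of Fos was 0.18 after CCI and 0.59 after sham, that of Npas4 0.36 and 0.70, and that of Egr2 0.13 and 0.28. The sham over CCI ratio of these SDs was 3.24 for Fos, 1.95 for Npas4 and 2.08 for Egr2, against a median of 0.917 and a 95th percentile of 1.60 over all rows. Single mice carried part of this. Without KO sham replicate 12 the ratio of Egr2 was 1.34 and that of Nr4a1 1.14 in place of 1.53, and without KO sham replicate 31 the ratio of Npas4 was 1.42, all under the 95th percentile of all rows. With any 1 array left out the ratio of Fos stayed between 2.89 and 3.57. Nr4a2 ran the other way, with 0.50 after CCI and 0.29 after sham, as did Egr3 with 0.36 and 0.27. Their ratios, 0.585 and 0.749, were at the percentiles 10.5 and 27.9 of all rows. Without KO CCI replicate 40 the ratio of Nr4a2 was 0.719. These spreads are a description with no test.

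**Figure D3:**
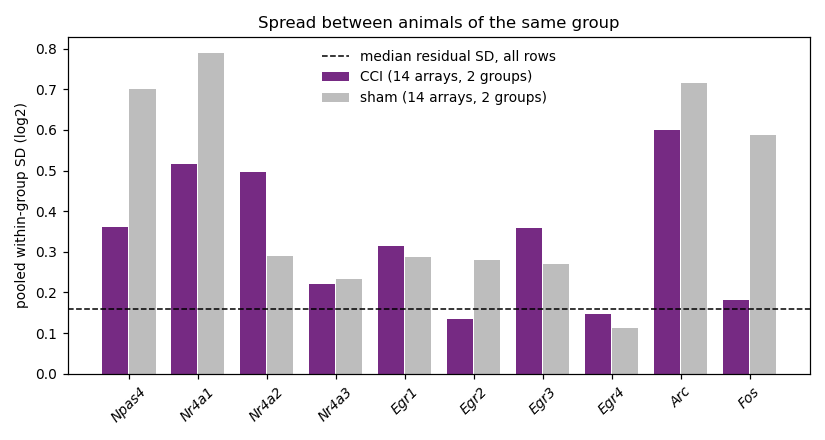
Pooled within-group SD of log2 signal (vertical axis) of each gene after CCI and after sham, 14 arrays in 2 groups each, with the median residual SD over all rows (0.16) dashed. The sham bar is the taller one for Fos, Npas4, Nr4a1, Egr2 and Arc, with Nr4a3 nearly level, and the CCI bar is the taller one for Nr4a2, Egr3, Egr4 and Egr1.

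The variation was shared among genes. KO sham replicate 12 was the highest of its group in 7 of the 10 genes, among them Nr4a1 (12.19), Arc (11.73), Egr1 (10.39) and Egr2 (7.64). KO sham replicate 31 was the highest for Npas4 (10.01) and Fos (7.72). In WT sham, replicates 2 and 3 were each highest in 4 genes and replicate 4 was lowest in 4. Fos in KO sham had 2 mice at 7.68 and 7.72 and 5 mice between 6.11 and 6.64. KO sham replicate 12 did not stand apart over all named genes: its median absolute distance from the other arrays of its group was 0.0860, within the 0.0812 to 0.0938 of the other KO sham arrays.

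**Figure D4:**
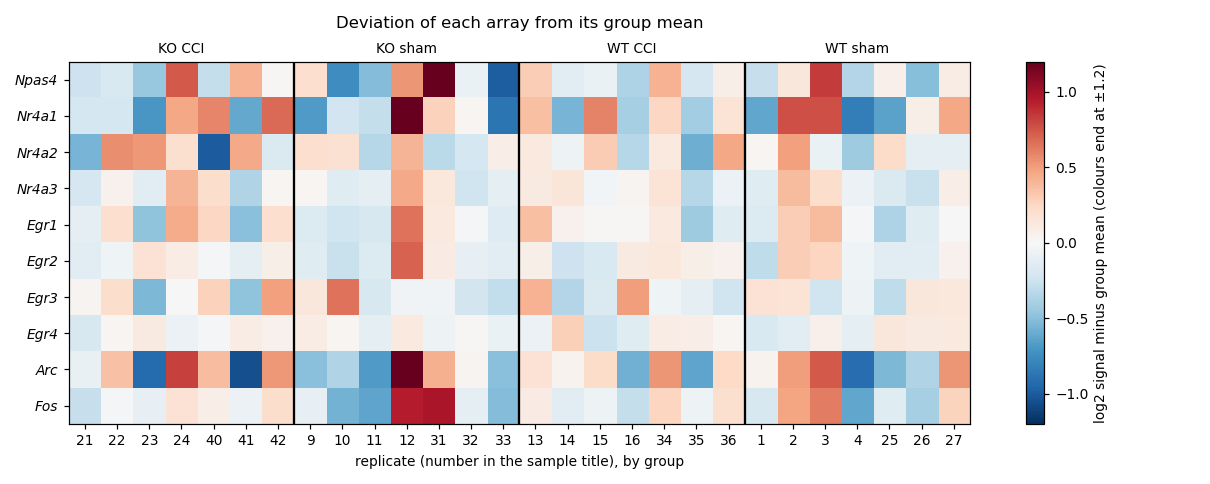
Deviation of log2 signal from the group mean (colour, ending at ±1.2) for each gene (rows) and each mouse (columns, by group and title number). Columns such as KO sham 12 and WT sham 2 and 3 are red in most rows, whereas over all 28 arrays the rows of Nr4a2, Egr3 and Egr4 follow the others less. Among numbers 25 to 42 alone Egr3 has r = 0.88 with Egr1.

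Across the 28 arrays, with group means and sex taken out, 39 of the 45 pairs of members had a positive Pearson r and 19 exceeded 0.5. Nr4a1 and Arc had r = 0.90 (Spearman rho 0.87), Nr4a3 and Egr1 0.88 (0.86), Egr1 and Arc 0.86 (0.83), and Npas4 and Fos 0.84 (0.80). Without the 2 arrays farthest from the median of the first gene of each pair, r was 0.86, 0.82, 0.79 and 0.76 in that order. These are descriptions with no test, and both values of a pair share an array and a tissue sample. Nr4a1 and Arc kept r = 0.92 in numbers 1 to 24 and 0.93 in 25 to 42, and r = 0.85 in CCI and 0.93 in sham mice.

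Npas4, Nr4a1, Nr4a3, Egr1, Egr2, Arc and Fos, a set picked after these values were seen, had r between 0.45 and 0.90 in their 21 pairs. The 24 pairs with Nr4a2, Egr3 or Egr4 had r between -0.28 and 0.35. This separation was not present in every subset. In CCI mice the 21 pairs spanned 0.10 to 0.87 and the 24 pairs -0.46 to 0.66, and in numbers 25 to 42 the 21 pairs spanned -0.00 to 0.95 and the 24 pairs -0.64 to 0.88. Egr3 had a median r of 0.07 with the other members over all 28 arrays. In numbers 25 to 42 it had r = 0.88 with Egr1, 0.83 with Nr4a1, 0.80 with Arc, 0.69 with Egr2 and 0.64 with Nr4a3, against 0.19, 0.09, 0.02, 0.09 and 0.02 in numbers 1 to 24. In CCI mice Egr3 had r = 0.66 with Egr1. Over all arrays Arc, Egr2 and Fos, which were not called in the injury comparison, had medians of 0.65, 0.64 and 0.65. In the same 21 pairs the median r was 0.48 in CCI and 0.86 in sham mice. Leaving out KO sham replicate 12 gave a median of 0.57 in place of 0.70 over all arrays, and the runs of title numbers alone gave 0.81 and 0.68.

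The genes most like the mean pattern of the 10, each member scaled to mean 0 and SD 1, were ranked among 18018 candidates. On deposited values these were Dusp1 (r = 0.83), Pcsk1 (0.83), Arid3b (0.82), Lgr4 (0.81) and Lonrf1 (0.80), against a 95th percentile of 0.59 over all candidates. With group means and sex taken out they were Dusp1 (0.84), Sik1 (0.78), Dusp6 (0.77), Btg2 (0.76) and Gpr3 (0.74), against a 95th percentile of 0.37. Dusp1 and Dusp6 encode phosphatases that switch off MAP kinases, and Sik1 encodes a kinase that restrains CREB coactivators. In sham mice alone Dusp1 was again first (0.91), whereas in CCI mice alone it ranked 397 (0.64). All are given over 28 arrays unless stated, or 14 for a single procedure, with no test.

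Other genes of the pathway were read from lists. Without any centring, 8.27% of all rows were called lower and 8.43% higher in KO, and 7.96% and 8.86% in WT. Among 22 measured rapid response genes outside the 10, 6 were called higher after CCI in KO and the same 6 in WT: Jun, Ccn1, Atf3, Gadd45g, Zfp36 and Gadd45b, several of which answer to injury and stress as well as to activity. In KO none was called lower, and in WT Dusp1 and Ier5 were. Jun, the AP-1 partner of FOS, rose by a log2 change of 1.22 in KO (SE 0.11, limma adjusted p = 2.75e-09) and 1.15 in WT (SE 0.11, adjusted p = 4.1e-09). Ccn1, a matrix protein, rose by 1.18 and 1.24, Atf3, a stress factor, by 0.89 and 0.81, and Gadd45g, a growth arrest gene, by 0.65 and 0.77 in KO and WT. Dusp1 fell by 0.74 in WT (adjusted p = 0.0471) and had a log2 change of -0.33 in KO (adjusted p = 0.468). The Dusp1 call was lost with quantile normalization (adjusted p = 0.0525) and without the 7 arrays (-0.54, adjusted p = 0.411). The list's median log2 change was 0.04 in KO and 0.09 in WT. Each array centred on the mean of 8 pan-neuronal markers gave 13 higher and 0 lower in KO and 7 higher and 0 lower in WT. That centring moved the median log2 change of all rows to 0.24 in KO and 0.09 in WT, and it called 56.1% of all rows higher and 1.98% lower in KO, and 13.3% higher and 2.47% lower in WT. In KO the share of the list called, 13 of 22, was therefore near that of all rows.

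Among 14 effector genes, which activity raises downstream of such factors, 5 were called lower in KO and none higher, and 7 were called lower and 1 higher in WT. Beside these counts, 8.27% of all rows were called lower and 8.43% higher in KO, and 7.96% and 8.86% in WT. The medians of the list were -0.18 in KO and -0.24 in WT. Under the pan-neuronal centring the counts were 4 lower and 2 higher in KO and 4 lower and 1 higher in WT. The median was then 0.05 in KO. Of all rows, that centring called 1.98% lower and 56.1% higher in KO, and 2.47% lower and 13.3% higher in WT. Pcsk1, a convertase that processes neuropeptides, fell by 0.88 in KO (SE 0.094, limma adjusted p = 9.95e-08) and 1.05 in WT (SE 0.093, adjusted p = 2.31e-09). Nrn1, a neurite outgrowth factor, fell by 0.69 and 0.85, Homer1, a postsynaptic scaffold, by 0.68 and 0.63, and Adcyap1, the neuropeptide PACAP, by 0.50 and 0.49 in KO and WT. Inhba fell by 0.28 in KO. Ptgs2, the inducible cyclooxygenase, rose by 0.41 in WT (adjusted p = 0.0184) and had 0.28 in KO (adjusted p = 0.142).

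Of 20 upstream regulators, 9 were called lower and 1 higher in KO, and 8 lower and 2 higher in WT, whereas under the pan-neuronal centring 4 were called lower and 8 higher in KO and 5 lower and 3 higher in WT. Without the centring, 8.27% of all rows were called lower and 8.43% higher in KO, and 7.96% and 8.86% in WT. With it, 1.98% were called lower and 56.1% higher in KO (58.1% in either direction), and 2.47% and 13.3% in WT (15.8%). In either direction 12 of 20 in KO is near the share of all rows. By direction, 4 of 20 called lower is above that share and 8 of 20 called higher is under it. Called lower under both scalings in both genotypes were Camkk2 (log2 change -0.84 in KO and -0.83 in WT) and Camk4 (-0.64 and -0.70), kinases that carry the calcium signal to CREB, Mef2c (-0.69 and -0.60), a factor at activity-dependent enhancers, and Grin2a (-0.64 and -0.56), an NMDA receptor subunit. Elk1, which binds beside SRF, rose by 0.46 in KO and 0.44 in WT, and Mef2a rose by 0.18 in WT. Among 9 partners and corepressors, Jun was the 1 called higher and Arnt2, a partner of NPAS4, the 1 called lower (-0.30 in KO and -0.20 in WT). The Arnt2 call was lost under the same centring (limma adjusted p = 0.282 in KO and 0.405 in WT), where the list gave 6 higher in KO, 2 in WT and none lower, beside 56.1% and 13.3% of all rows called higher.

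Arnt, another partner of NPAS4, was the single gene of these 4 lists called between genotypes. Of all rows, 1.28% were called after sham and 3.16% over both procedures. A single gene among lists of 22, 14, 20 and 9 measured genes is close to those shares. It was higher in KO after sham (log2 difference 0.22, SE 0.053, limma adjusted p = 0.035) and over both procedures (0.15, SE 0.038, adjusted p = 0.0222). Without the 7 arrays the adjusted p was 0.0725 after sham and 0.0894 over both procedures, and under the pan-neuronal centring it was 0.326 after sham.

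**Figure D5:**
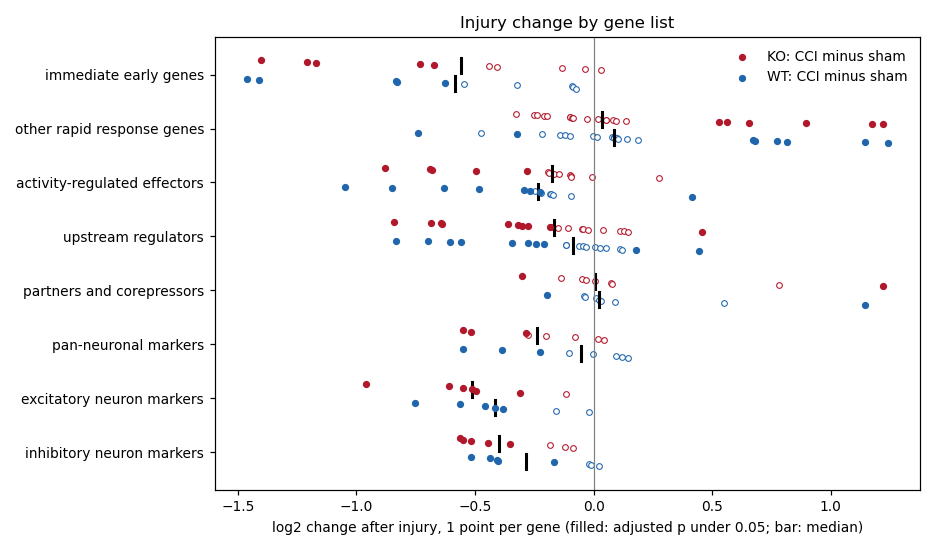
Log2 change after CCI relative to sham (horizontal axis) of each gene of a list, KO above WT, filled where the adjusted p was under 0.05, with the list's median as a bar. The immediate early genes have medians of -0.56 in KO and -0.59 in WT, and the filled points of the other rapid response genes lie mostly above 0 while those of the effectors lie mostly below. Under the pan-neuronal centring the upstream regulators have 8 higher and 4 lower in KO, where 56.1% of all rows are called higher and 1.98% lower.

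Markers of neurons moved with the injury comparison, in which 8.27% of all rows were called lower and 8.43% higher in KO, and 7.96% and 8.86% in WT. Of 7 excitatory neuron markers 6 were called lower in KO and 5 in WT, of 8 inhibitory neuron markers 5 in each, and of 8 pan-neuronal markers 3 in each. The mean log2 signal of the excitatory list spanned 10.88 to 11.35 in KO CCI, against 11.43 to 11.77 in KO sham, and 10.76 to 11.25 in WT CCI, against 11.36 to 11.54 in WT sham. That of the pan-neuronal list spanned 13.34 to 13.63 in KO CCI, against 13.66 to 13.85 in KO sham, and 13.49 to 13.81 in WT CCI, against 13.65 to 13.85 in WT sham. All 8 microglia and macrophage markers were called higher in both genotypes, with a median log2 change of 1.34 in KO and 1.64 in WT. Their mean spanned 8.65 to 9.64 in KO CCI, against 7.25 to 7.63 in KO sham, and 8.78 to 9.86 in WT CCI, against 7.18 to 7.38 in WT sham. Among 5 astrocyte markers 3 were called higher and 1 lower in each genotype. The 5 oligodendrocyte markers had 1 called higher in KO and 5 in WT, the 6 endothelial markers 2 and 3, and the 8 choroid plexus markers 1 and 0. None of 6 striatum and 5 dentate gyrus markers was called.

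Centred on the pan-neuronal markers, every injury change shifts by 0.23 in KO and 0.11 in WT, and the 5 members were still called lower in both genotypes. Npas4 then had -1.17 in KO and -1.30 in WT, Nr4a1 -0.94 and -1.35, Nr4a3 -0.50 and -0.72, Egr1 -0.44 and -0.51, and Egr3 -0.98 and -0.72. Egr2, at 0.03 without the centring, was then called higher in KO (0.26, limma adjusted p = 0.0439), by the shift that every row had and with 56.1% of all rows called higher. The pan-neuronal list had a median log2 change of -0.24 in KO and -0.05 in WT. The excitatory list fell more, with medians of -0.51 and -0.41, and no centring on it was run. The part of the neuron and microglia markers in the changes of the members was not tested. The pan-neuronal list itself held genes called between genotypes: the neurofilament gene Nefl was lower in KO than in WT by a log2 difference of -0.35 after sham and -0.35 after CCI, and Nefm by -0.38 after CCI.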

How the data were processed

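The deposited table holds log2 signal per transcript cluster (row), read as log2 from its values, for 28 MTA 1.0 arrays. Per the labels' protocols, RNA came from flash-frozen cortex by Trizol, and each array took 100 ng of it with a biotin label. The authors' normalization, software and genome build are not given in the sources used here, and no further normalization was applied. Of 72688 rows, 6732 controls were left out and 65956 were tested. Names came from the platform annotation, updated through RefSeq (GRCm38.p6). Rows listing several genes (1670), or whose chromosome differed from that of the gene (88), were not named.

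Groups were compared with limma 3.58.1 in R 4.3.3 (lmFit, eBayes), in a model of 4 groups plus sex, and p-values were adjusted over all rows by the Benjamini-Hochberg method. The sex difference of the injury change came from a model with a mean for each sex in each group. Injury changes are CCI minus sham, genotype differences KO minus WT. The model was tested on simulated data. The p-values set differences against the spread between mice, and 7 arrays per group limit the precision.

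The members and lists were chosen with earlier results of these data known. Named were all 10 members, up to 4 genes per list and direction with the largest called injury change, up to 2 called between genotypes, and the 5 genes most like the members by each measure. Other genes named (Zfp36, Gadd45b, Inhba) were chosen after their values were seen. Of the genes in the lists, 9 had no row with a usable name. Other normalizations, scalings, filters, model terms and variance estimates were tried, each run of title numbers was fitted alone, and each array was left out in turn. Leaving out the 7 arrays of high striatum or choroid plexus signal was chosen after seeing the data. Promoters are RefSeq's. Python 3.11.15, pandas 2.3.3 and matplotlib 3.10.9 were used for descriptions and figures.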

Additional observations from a re-analysis of the deposited data

Results flagged for a closer look

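Of 40 groups of 7 values (10 genes in 4 groups), 2 held a sample far from the rest, where chance flags about 1 in 20 groups. Both came from KO sham replicate 12. Its Egr1 signal was 10.39 on the log2 scale, against 9.50 to 9.86 in the other 6 KO sham mice. Its Egr2 signal was 7.64, against 6.66 to 7.03 in the others.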

How the results depend on the processing

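No called injury change of a member reversed under any alternative, and no member was called between genotypes, sexes or injury changes under any. Within numbers 1 to 24 alone the count of called members was 3 in KO and 3 in WT, and within 25 to 42 alone 1 in KO and 2 in WT, in place of 5 each; these fits have fewer arrays. Leaving out each array in turn gave 4 to 5 in KO, 5 to 5 in WT and 5 to 6 over both genotypes. The gene lost in KO was Nr4a1, without KO sham replicate 12, and also at an adjusted p under 0.01. Over both genotypes Nr4a2 was gained without WT sham replicate 4, WT CCI replicate 36 or KO CCI replicates 22, 23 or 41, and among the brighter rows (adjusted p = 0.0472). Egr4 was gained with quantile normalization (adjusted p = 0.0449), median centring (0.0295) and without WT CCI replicate 14 (0.0273). The median SD of the members was 0.362 in numbers 1 to 24 and 0.365 in 25 to 42. Their median pair correlation was 0.52 in sham mice and 0.28 in CCI mice, against 0.29 over all. Over all rows, 11017 were called in KO and 11094 in WT. Numbers 1 to 24 gave 5900 in WT, numbers 25 to 42 gave 2567 in KO and 5217 in WT, a threshold of 0.01 gave 7060 and 7268, and pan-neuronal centring gave 38310 in KO. Calls between genotypes over all rows ranged from 5 to 1279 after sham (847 as reported), 15 to 631 after CCI (431) and 74 to 2503 over both (2081), and calls between the sexes from 13 to 355 (321) and between their injury changes from 0 to 177 (7). Over both genotypes 16764 were called, 8783 in numbers 25 to 42 and 37729 with pan-neuronal centring and 10407 among rows with 1 gene symbol. The fit of only the arrays compared gave values for the 4 comparisons of 2 groups, and the fit with no sex term gave none for the sex comparisons. No paired analysis was possible because the title numbers are unique to each array and the groups share none.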
